A study of Mus musculus with 12 samples.

Results

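C-type lectin receptors of the mouse lung were followed over age in a table of reads per gene. The members were the protein-coding genes whose symbol starts with Clec and a digit, together with Cd207, Cd209a, Cd209b, Cd209f, Cd302 and Cd69. They numbered 39 gene IDs of 35275 in the table, with 38 symbols, since Clec7a had 2 IDs. Of the 39, 28 passed the filter on low reads and were tested among 16042 genes. The libraries were poly(A) RNA-seq of whole lung from male wild-type C57Bl/6J mice aged 3, 6, 12 and 24 months, with 3 mice and 3 libraries at each age and no treatment, allele or sort in any group. Each mouse was a separate sample per the labels, and the 3-month mice were the reference of most comparisons.

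C-type lectin receptors are membrane proteins, mostly of macrophages, dendritic cells and neutrophils, that bind sugars, lipids or proteins through a shared fold. Some of them, such as Dectin-1 (Clec7a) and Mincle (Clec4e), pass the signal to the kinase SYK and the adaptor CARD9, directly or through the Fc receptor gamma chain Fcer1g, and start cytokine production. Others carry inhibitory motifs that recruit phosphatases, and others mainly take up their ligands for degradation or antigen presentation. The family name also covers relatives with other tasks, such as ligands of NK cell receptors, endothelial proteins and secreted proteins. In the lung these receptors are known for the recognition of fungi and mycobacteria.

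Promoter windows are shown for the neighbours Clec4d and Clec4e on chromosome 6, both higher at 12 than at 3 months, and for Clec4a1 of the same gene cluster, higher at 24 months. Each is the 250 bases before the RefSeq start, 5′ to 3′ on the gene's strand, in build GRCm38.p6. Capitals mark a match to one of the motifs searched.
Clec4d, chr6:123261857-123262106, plus strand: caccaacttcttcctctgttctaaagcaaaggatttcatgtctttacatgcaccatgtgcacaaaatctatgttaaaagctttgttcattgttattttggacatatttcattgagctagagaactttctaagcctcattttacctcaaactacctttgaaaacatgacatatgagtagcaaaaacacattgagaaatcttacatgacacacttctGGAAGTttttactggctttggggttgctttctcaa
Clec4e, chr6:123289872-123290121, minus strand: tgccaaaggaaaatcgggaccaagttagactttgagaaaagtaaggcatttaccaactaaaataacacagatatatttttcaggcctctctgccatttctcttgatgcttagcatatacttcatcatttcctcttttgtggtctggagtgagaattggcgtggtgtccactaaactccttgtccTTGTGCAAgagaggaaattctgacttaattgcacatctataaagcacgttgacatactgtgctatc
Clec4a1, chr6:122921598-122921847, plus strand: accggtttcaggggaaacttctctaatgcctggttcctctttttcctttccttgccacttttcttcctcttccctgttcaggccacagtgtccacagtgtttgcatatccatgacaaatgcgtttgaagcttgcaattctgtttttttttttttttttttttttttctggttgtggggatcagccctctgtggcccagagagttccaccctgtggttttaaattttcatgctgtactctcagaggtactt
The capitals in Clec4d are the ETS core GGAAGT, and those in Clec4e match the C/EBP motif TTGCNNAA. The Clec4a1 window held none of the motifs. RefSeq windows were at hand for 23 of the 28 tested members and for 27025 genes in all, and both strands were searched. Of the 23, 4 (Cd209f, Clec12a, Clec14a and Clec4a2) end within a GENCODE transcript of the gene, and the 3 shown do not. The first 20 bases from the RefSeq start were found in a GENCODE transcript of the gene for 19 of the 23. Clec4a1 was among these, and Clec4d and Clec4e were not. The C/EBP motif was in 6 of the 23 windows (26.1%) and in 9.55% of all windows. The ETS core was in 3 (13%, against 20% of all windows), the AP-1 motif TGANTCA in 3 (13%, against 6.87%), the interferon-stimulated response motif in 2 (8.7%, against 3.04%) and the NF-kB motif in 0 (against 0.337%). These are matches of letters only, and no binding was measured.

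Libraries held 14.7 to 21.2 M gene reads, of which the members took 4048 to 9779 at 24 months and 12916 to 23313 at the other ages. Below, levels are CPM, that is, gene reads scaled to library size with TMM, and fold changes are log2 values ± SE. Adjusted p-values come from the edgeR quasi-likelihood test with Benjamini-Hochberg adjustment over all tested genes, and a gene was called below 0.05. The 3 libraries of 24 months stood apart along a principal component that held 84% of the variance. Their read-weighted GC content was 54.1 to 55.8%, against 50.1 to 51.5% in the other 9 libraries. Mitochondrially encoded reads made up 0.443 to 0.629% at 24 months and 1.65 to 3.12% at the other ages. At 12 months the library of mouse 3 differed from those of mice 1 and 2 in GC content (50.4% against 51.4 and 51.5%). Its mitochondrially encoded reads were 3.12%, against 1.95 and 1.96%, and whether this bears on its levels was not tested. Comparisons are therefore also given with a GC offset, which removes each library's smooth trend of level on GC content and gene length. The members had a median GC content of 44.4% (range 35.9 to 60.2%), against 49.9% over all tested genes. As a check of the tissue, 10 lung epithelium markers summed to 63660 to 83220 CPM at 24 months and 45780 to 61740 CPM at 3 months.

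**Figure D1:**
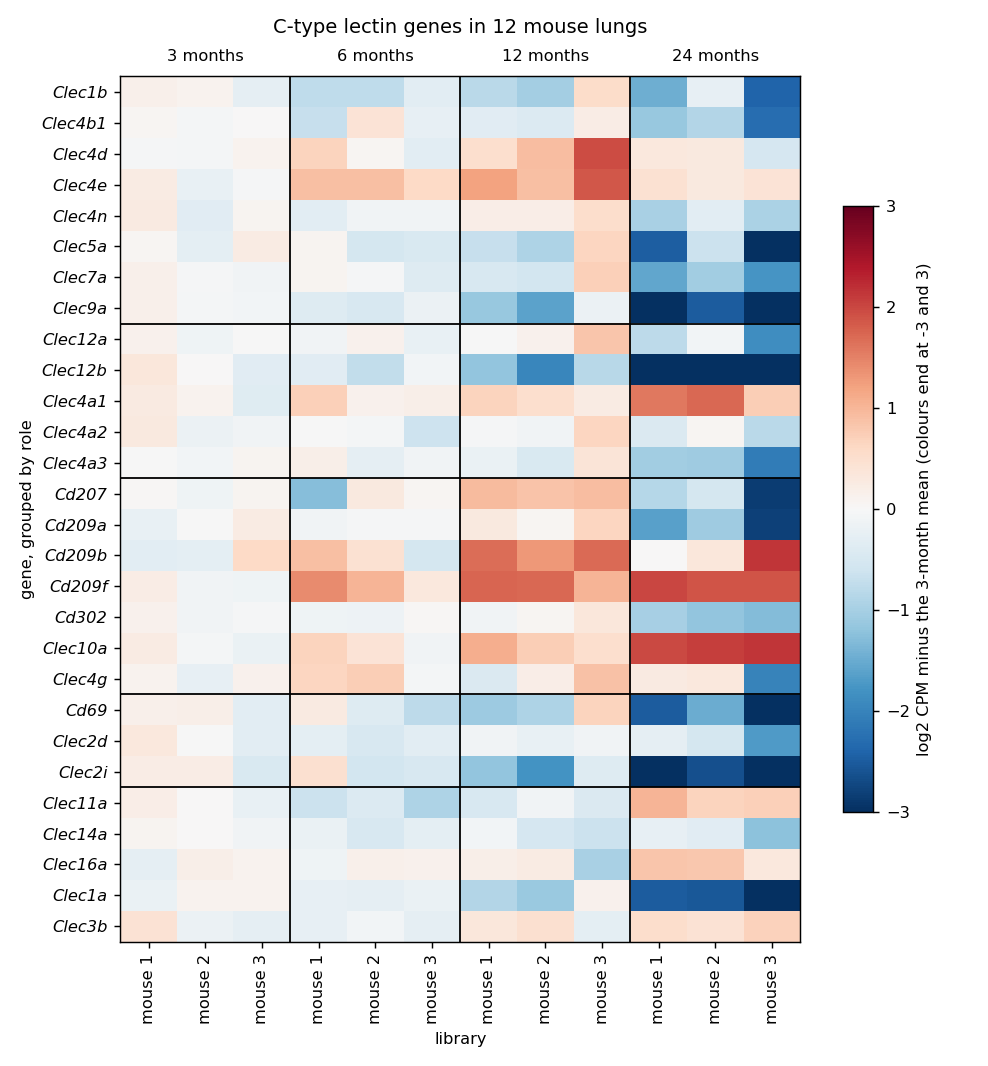
Log2 CPM of each tested member in each library, minus its mean over the 3-month mice, with genes in rows by role and the 12 libraries in columns by age. The 24-month columns are mostly blue (lower), while Clec10a, Cd209f and Clec4a1 are red (higher) there.

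By length-normalised level, in the FPKM deposited by the authors, Clec2d led at 3 months with 144 ± 31.4 (SD, n = 3), followed by Clec3b with 117 ± 31.6. Clec14a had 73.9 ± 5.24, Clec1a 38.2 ± 4.82 and Cd302 27.9 ± 2.04 FPKM. The leading genes thus encode an NK receptor ligand, a secreted protein, endothelial proteins and an uptake receptor. Clec9a (12.4 ± 1.09), Clec7a (12.4 ± 1.18) and Clec4n (11.2 ± 2.12) came next and did not differ beyond their spread, and neither did Clec2d and Clec3b. The lowest tested members were Clec4e (0.447 ± 0.0732), Cd207 (0.523 ± 0.0357) and Cd209b (0.538 ± 0.228 FPKM). At 24 months Clec3b led with 100.3 ± 16.7 FPKM, followed by Clec2d with 55.8 ± 32.8 and Clec14a with 31.9 ± 15.7, and Clec1a had 3.12 ± 2.37.

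No member was called at 6 against 3 months, where edgeR called 0.0% of all genes and DESeq2 called 6 genes, none of them a member. The fit with the GC offset called 0.00627% of all genes and no member. At an unadjusted p under 0.05, 3 members and 267 of all genes passed in edgeR. These were Cd209f (1.00 ± 0.31), Clec4e (0.83 ± 0.29) and Clec11a (-0.66 ± 0.22), and in each of them the mice of both ages did not overlap. That also held for Clec14a, Clec1b and Clec9a, which were lower and did not pass. The share of all genes without overlap is not given here. At 12 against 3 months 5 members rose and 1 fell. The 6 called members are 21.4% of those tested, against 15.2% of all genes, and the 5 that rose are 17.9%, against 6.3% of all genes. The 1 that fell is 3.57%, against 8.87%. The median fold change of the members was 0.06, against -0.02 over all tested genes. Under the GC offset Cd209b was no longer called and Clec12a was, so that again 5 rose, against 9.62% of all genes, and 1 fell, against 8.08%. Neither comparison is independent of the other or of 24 against 3 months, since they share the 3-month mice.

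**Figure D2:**
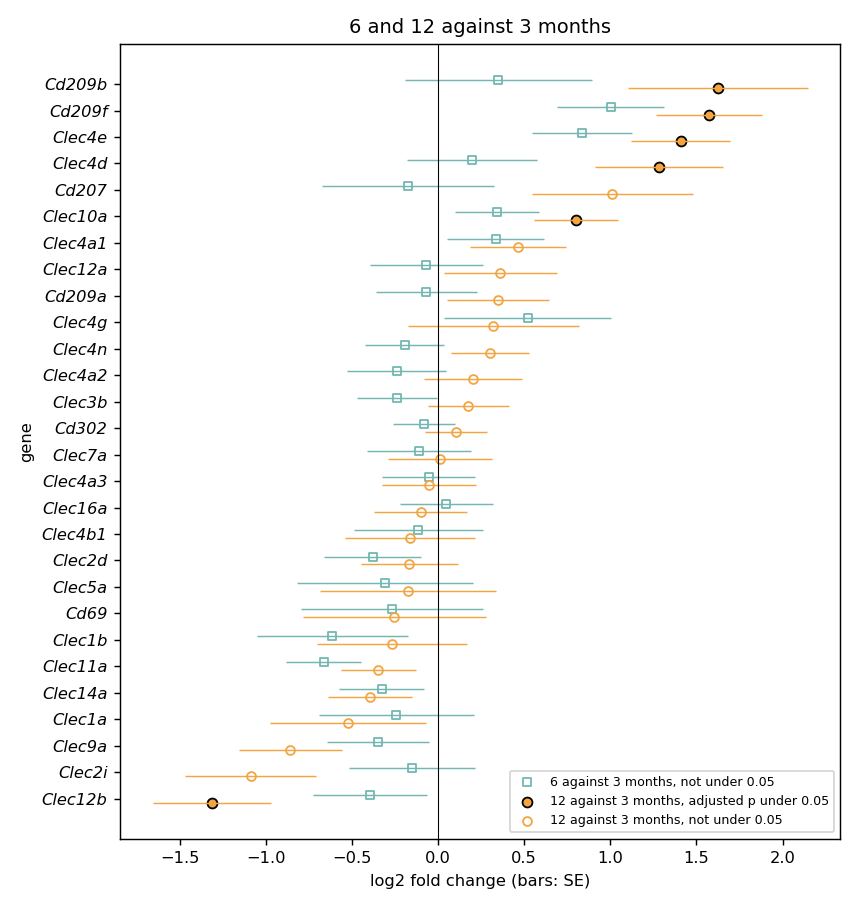
Log2 fold change of each tested member at 6 (squares) and 12 months (circles) against 3 months, with SE bars and filled symbols for an adjusted p under 0.05. No square is filled, and Cd209b, Cd209f, Clec4e, Clec4d and Clec10a on the right and Clec12b at the bottom are the filled circles.

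At 24 against 3 months the outcome depended on this offset. Without it 6 members rose and 15 fell, so that 75% were called, against 82.8% of all genes. The share that rose was 21.4%, against 38.2% of all genes, the share that fell was 53.6%, against 44.6%, and the median was -0.73, against -0.29. With it 12 rose and 3 fell, 53.6% in all, against 58.5% of all genes, and the 12 that rose are 42.9%, against 30.3%. The 3 that fell are 10.7%, against 28.2%. The median then was 0.30, against -0.01 over all genes. Clec10a, Cd209f and Clec4a1 rose, and Clec12b and Clec9a fell, both with and without the GC offset. The shares of all genes given here also stand beside the counts of each gene list below at this comparison. Those given above for 12 against 3 months apply to the lists likewise.

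Among the activating receptors, Clec4e and Clec4d were the members raised at 12 months. Clec4e, known as Mincle, senses mycobacterial glycolipids and dead cells. Clec4e had 2.19, 1.54 and 1.79 CPM at 3 months, 3.52, 3.53 and 2.83 CPM at 6 months, 4.37, 3.48 and 6.89 CPM at 12 months and 2.55, 2.25 and 2.46 CPM at 24 months. All mice of 12 months were above those of 3 months, with 12-month mouse 3 the highest. The fold change was 1.41 ± 0.29 (edgeR, adjusted p = 0.00876) and 1.94 ± 0.26 (adjusted p = 0.0011) with the GC offset. Without 3-month mouse 2 it was 1.29 (adjusted p = 0.0632). Clec4d, a receptor that pairs with Clec4e, had 2.61, 2.59 and 2.89 CPM at 3 months, 4.35, 2.82 and 2.16 CPM at 6 months, 3.85, 5.20 and 10.7 CPM at 12 months and 3.37, 3.34 and 1.87 CPM at 24 months. Again 12-month mouse 3 was the highest, and the 12-month and 3-month mice did not overlap. The fold change of Clec4d was 1.28 ± 0.37 (adjusted p = 0.0336) and 1.29 ± 0.27 (adjusted p = 0.007) with the GC offset. Of the 6 fits that leave out 1 mouse, the one without 12-month mouse 1 kept the call (adjusted p = 0.0284). In the others the adjusted p was 0.0729, 0.138 and 0.107 without 3-month mouse 1, 2 or 3, and 0.0583 and 0.107 without 12-month mouse 2 or 3, with a fold change of 0.74 in the last. Both genes were called in each of these 6 fits with the GC offset.

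In the oldest mice Clec4e had a fold change of 0.39 ± 0.31 against 3 months (adjusted p = 0.243), and the GC offset gave 3.20 ± 0.30 (adjusted p = 1.07e-06). Clec4d likewise had 0.11 ± 0.39 (adjusted p = 0.801), and 1.78 ± 0.30 (adjusted p = 0.000158) by the fit with the offset. At 24 against 12 months both fell without the GC offset, Clec4e by 1.02 ± 0.30 and Clec4d by 1.17 ± 0.38, and without 12-month mouse 3 Clec4d had -0.63 (adjusted p = 0.0991). Clec4e with the GC offset was higher at 24 than at 12 months (1.26 ± 0.28), against the direction of its CPM, which were lower in all 3 mice. Neutrophils and monocytes are known to express both genes. Of their markers, the 14 of neutrophils summed to 327, 507 and 799 CPM in the 12-month mice, highest in mouse 3, and to 300.1 to 437 CPM at 3 months. Of the 14, 1 was higher and 2 were lower at 12 than at 3 months with and without the GC offset. Their median fold change was 0.10, and -0.40 with the GC offset. At the oldest age they summed to 727 to 925 CPM (24 months), with 3 higher and 2 lower against 3 months (3 and 0 with the GC offset). Of the 16 markers of monocytes and interstitial macrophages 4 rose and none fell at 12 against 3 months (5 and 1 with the GC offset), with summed levels of 10430 to 13500 CPM at 12 months and 7303 to 8273 CPM at 3 months. In the comparison of 24 with 3 months 10 rose and 3 fell (12 and 1 with the GC offset), with sums of 8190 to 10870 CPM at 24 months. The part of these cells in the results was not tested, and in whole lung fewer cells of a type and less RNA per cell cannot be told apart.

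**Figure D3:**
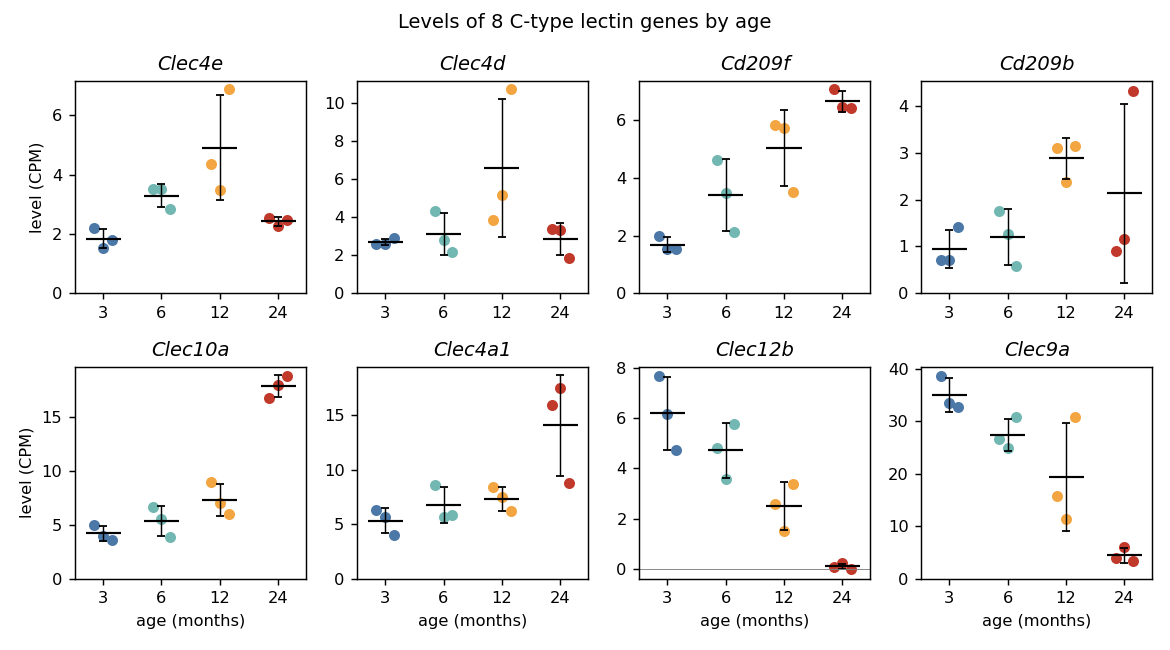
CPM of 8 members in each mouse at 3, 6, 12 and 24 months, with bars for the mean ± SD of 3 mice. Clec4e and Clec4d peak at 12 months, Clec10a and Clec4a1 are highest at 24 months, and Clec12b and Clec9a are lowest at 24 months.

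Clec7a and Clec4n, receptors of fungal glucans and mannans, were lower at 24 months in CPM. Clec7a had 26.7, 23.3 and 22.2 CPM at 3 months, 25.4, 23.2 and 18.3 CPM at 6 months, 17.2, 16.2 and 39.5 CPM at 12 months and 8.07, 11.6 and 6.91 CPM at 24 months. All 24-month mice were below all others, and 12-month mouse 3 stood above all. Clec7a fell by 1.43 ± 0.32 (adjusted p = 0.000603) at 24 against 3 months, and with the GC offset it had 0.71 ± 0.20 (adjusted p = 0.00796), or 0.57 (adjusted p = 0.0535) without 24-month mouse 2. Clec4n (Dectin-2) had 15.9, 10.4 and 14.1 CPM at 3 months, 10.7, 12.3 and 12.3 CPM at 6 months, 15.3, 15.3 and 19.2 CPM at 12 months and 6.75, 10.7 and 6.79 CPM at 24 months. The 24-month and 3-month ranges overlapped through 24-month mouse 2. Clec4n fell by 0.73 ± 0.24 (adjusted p = 0.00979), or by 1.09 without 3-month mouse 2. Its value under the GC offset was 0.45 ± 0.18 (adjusted p = 0.0494), and in 5 of the 6 fits without 1 mouse, those other than the one without 24-month mouse 1, the adjusted p was 0.0664 to 0.295. Of 14 alveolar macrophage markers, cells known to express Clec7a, 5 rose and 7 fell at 24 against 3 months (3 and 6 with the GC offset), with sums of 1448 to 2079 CPM at 24 months and 1254 to 1478 CPM at 3 months.

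Clec9a, which binds the actin of dead cells on cross-presenting dendritic cells (cDC1), was lowest at 24 months. Clec9a had 38.6, 33.5 and 32.6 CPM at 3 months, 26.6, 24.9 and 30.8 CPM at 6 months, 15.7, 11.3 and 30.9 CPM at 12 months and 4.03, 6.11 and 3.40 CPM at 24 months. The 24-month mice were below all others, and the 12-month mice were all below the 3-month mice, with mouse 3 closest to them. At 24 against 3 months it fell by 2.93 ± 0.33 (adjusted p = 1.15e-06), and by 0.78 ± 0.25 (adjusted p = 0.0151) with the GC offset, where leaving out 24-month mouse 1 gave -0.57 (adjusted p = 0.0916). Between 12 and 3 months it had -0.86 ± 0.30 (adjusted p = 0.0625), -0.86 (adjusted p = 0.0273) in a fit without the 24-month libraries and -1.37 (adjusted p = 0.00558) without 12-month mouse 3. The other cDC1 markers did not move as a block. Of 11, 4 rose and 7 fell at 24 against 3 months, with the GC offset 6 rose and 2 fell. At 12 against 3 months none was called, and with the GC offset 1 rose. Their sums were 372 to 643 CPM at 24 months and 425 to 465 CPM at 3 months. Xcr1, the chemokine receptor of these cells, had 1.15, 0.364 and 0.117 CPM at 24 months and 2.11, 2.90 and 1.58 CPM at 3 months, a fall of 1.94 ± 0.51 (adjusted p = 0.00228), and 0.68 (adjusted p = 0.224) with the GC offset. Irf8, a transcription factor they need, rose (2.62 ± 0.28, and 2.19 with the GC offset).

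Clec1b, the platelet receptor of podoplanin, overlaps Clec9a at the ends of their gene spans on the same strand. Clec1b had 18.4, 17.7 and 13.7 CPM at 3 months, 9.63, 9.68 and 13.2 CPM at 6 months, 9.30, 8.13 and 24.1 CPM at 12 months and 5.93, 13.9 and 3.04 CPM at 24 months. At 24 months mouse 2 was within the 3-month range, and the others were below it. Clec1b fell by 1.09 ± 0.45 (adjusted p = 0.0343) at 24 against 3 months, and its adjusted p was 0.0515, 0.0991 and 0.121 without 3-month mouse 1 or 24-month mouse 1 or 3, 0.056 with RLE scaling and 0.122 with no filter. Without 24-month mouse 2 it fell by 1.86 (adjusted p = 0.00115). The GC offset made it higher (1.497 ± 0.28, adjusted p = 0.000432, and 0.96 without 24-month mouse 2). Of 12 platelet and megakaryocyte markers 9 rose at 24 against 3 months and none fell, where 38.2% of all genes were higher. With the GC offset 3 rose and none fell, where 30.3% of all genes were higher. Their sums were 587 to 1484 CPM at 24 months and 165 to 283 CPM at 3 months. Pdpn, the podoplanin gene itself, had 121, 87.1 and 59.0 CPM at 24 months and 188, 162 and 185 CPM at 3 months, a fall of 1.00 ± 0.23 (adjusted p = 0.000883), and -0.48 with the GC offset (adjusted p = 0.0166). The remaining activating receptors were Clec5a, a myeloid receptor of dengue virus, and Clec4b1 (DCAR). Clec5a had 0.494, 2.04 and 0.117 CPM at 24 months and 3.39, 2.64 and 3.89 CPM at 3 months. It fell by 1.78 ± 0.59 (adjusted p = 0.0112), by 3.29 without 24-month mouse 2, and had 0.76 ± 0.47 (adjusted p = 0.18) with the GC offset. Clec4b1 fell by 1.40 ± 0.44 (adjusted p = 0.00813) and had -0.71 ± 0.41 (adjusted p = 0.152) with the GC offset. In all, of 8 tested activating receptors none rose and 6 fell at 24 against 3 months, against 38.2% of all genes higher and 44.6% lower. With the GC offset 5 rose and Clec9a fell, against 30.3% and 28.2% of all genes.

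The genes that carry the signal of these receptors were mostly higher at 24 months with and without the GC offset. Of 30 signalling genes 22 rose and 5 fell at 24 against 3 months (22 and 4 with the GC offset). Of all genes 38.2% were higher and 44.6% lower (30.3% and 28.2% with the GC offset). The 30 had a median of 0.97 (0.74 with the GC offset). Syk, the kinase, had 186, 248 and 242 CPM at 24 months and 49.7, 66.8 and 60.5 CPM at 3 months, with no overlap and a rise of 1.94 ± 0.22 (adjusted p = 1.13e-06), 0.86 with the GC offset. The adaptor chains Fcer1g (1.46 ± 0.20, and 0.92 with the GC offset) and Tyrobp (1.01 ± 0.18, and 0.40) rose as well. Card9, downstream of Syk, rose by 0.76 ± 0.21 (adjusted p = 0.00401), but the GC offset turned its direction, to -0.92 ± 0.17 (adjusted p = 0.000283). Malt1, the partner of Card9 and Bcl10, fell (-3.66 ± 0.35, and -0.99 with the GC offset). Vav1, an exchange factor of blood cells, rose (2.31 ± 0.19, and 1.11), and its relative Vav3 fell (-3.42, and -1.21). Of the 30, 1 rose at 12 against 3 months, Il1b, a cytokine induced by these receptors (2.38, adjusted p = 0.00528). Malt1 (-1.30) and Vav3 (-1.03) fell. With the GC offset 1 of the 30 rose and 3 fell, Malt1 and Vav3 among these. Cblb (-0.69, and -0.15 with the GC offset, adjusted p = 0.587) fell without the offset, and Syk had 0.01 (adjusted p = 0.981). Cblb encodes a ubiquitin ligase that restrains such receptors.

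Among the inhibitory receptors and the DCIR family, Clec12b fell furthest. Clec12b, a receptor with an inhibitory motif, had 7.65, 6.16 and 4.73 CPM at 3 months, 4.79, 3.58 and 5.75 CPM at 6 months, 2.60, 1.49 and 3.39 CPM at 12 months and 0.0823, 0.218 and 0 CPM at 24 months. The mice of 12 months were all below those of 3 and 6 months, and those of 24 months were lower still, with 1, 3 and 0 reads against 185, 140 and 90 reads at 3 months. Against 3 months it fell at 12 months by 1.31 ± 0.34 (adjusted p = 0.023) and by 1.22 ± 0.27 (adjusted p = 0.00876) with the GC offset. Without the GC offset its adjusted p was 0.0623 and 0.0946 without 3-month mouse 1 or 2, and 0.0607 and 0.092 without 12-month mouse 1 or 2, while with the GC offset it was called in each of the 6 fits without 1 mouse. At 24 against 3 months it fell by 5.67 ± 0.55 (adjusted p = 2.91e-07) and by 4.06 ± 0.50 (adjusted p = 1.2e-05) with the GC offset. Both values rest on 4 reads at 24 months. Against 12 months it fell by 4.36 ± 0.59 (adjusted p = 9.97e-06), and by 2.83 ± 0.56 with the GC offset.

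Clec4a1, the first gene of its cluster and a DCIR relative without an inhibitory motif, moved the other way. Clec4a1 had 6.29, 5.63 and 4.05 CPM at 3 months, 8.64, 5.70 and 5.89 CPM at 6 months, 8.39, 7.46 and 6.19 CPM at 12 months and 15.9, 17.5 and 8.78 CPM at 24 months. In CPM all 24-month mice were above the mice of the other ages, 24-month mouse 3 by the least. In the deposited FPKM the 24-month mice had 8.4, 8.6 and 2.94, against 4.67, 4.34 and 2.99 at 3 months. On that scale 24-month mouse 3 was below all other mice. It rose by 1.41 ± 0.28 (adjusted p = 0.000263) at 24 against 3 months, and by 2.78 ± 0.24 (adjusted p = 6.6e-07) with the GC offset. Its neighbours differed. Clec4a2, the DCIR with an inhibitory motif, had -0.35 ± 0.30 (adjusted p = 0.275), and the GC offset gave 1.82 ± 0.22 (adjusted p = 8.87e-06). Clec4a3 fell by 1.32 ± 0.29 (adjusted p = 0.000595) and had 0.26 ± 0.18 (adjusted p = 0.229) with the GC offset. Clec12a, an inhibitory receptor of uric acid crystals, had 5.35, 8.80 and 2.46 CPM at 24 months and 10.2, 8.40 and 9.26 CPM at 3 months. These ranges overlapped, and its fold change was -0.72 ± 0.34 (adjusted p = 0.0625), while the GC offset gave 1.69 ± 0.23 (adjusted p = 3.16e-05). Between 12 and 3 months Clec12a was called with the GC offset (0.74 ± 0.21, adjusted p = 0.0305) and not without it (0.36 ± 0.33, adjusted p = 0.432). The DCIR genes are close paralogs, and the counting rule for shared reads was not given in the sources used here.

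Among uptake receptors, Clec10a and Cd209f rose at 12 and at 24 months. Clec10a encodes MGL1, a galactose and GalNAc receptor of macrophages and dendritic cells. Clec10a had 5.004, 4.002 and 3.63 CPM at 3 months, 6.66, 5.60 and 3.86 CPM at 6 months, 8.96, 7.07 and 6.01 CPM at 12 months and 16.8, 18.0 and 18.9 CPM at 24 months. The 12-month mice were above the 3-month mice, and the 24-month mice above all others and close to each other. It rose by 0.80 ± 0.24 (adjusted p = 0.0399) at 12 and by 2.08 ± 0.25 (adjusted p = 1.68e-06) at 24 against 3 months, and by 0.76 ± 0.21 (adjusted p = 0.0262) and 2.24 ± 0.21 (adjusted p = 1.34e-06) with the GC offset. At 24 against 12 months it rose by 1.28 ± 0.24, and by 1.48 with the GC offset. The 12-month call was lost without 3-month mouse 2 or 3 (adjusted p = 0.162 and 0.168) and without 12-month mouse 1 or 2 (adjusted p = 0.156 and 0.0889), and with no filter on reads (adjusted p = 0.0522). Under the GC offset the call was lost without 3-month mouse 2 or 3 or 12-month mouse 1 (adjusted p = 0.0961, 0.0982 and 0.0917).

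Cd209f, a mouse relative of DC-SIGN, had 1.99, 1.54 and 1.53 CPM at 3 months, 4.62, 3.48 and 2.11 CPM at 6 months, 5.84, 5.75 and 3.50 CPM at 12 months and 7.08, 6.47 and 6.44 CPM at 24 months. From 6 months on all mice were above those of 3 months, and in CPM the 24-month mice were above all others. In the deposited FPKM the 24-month mice had 4.93, 4.18 and 2.83, against 5.36, 5.15 and 3.13 at 12 months. On that scale they were not the highest, and were still above the 3-month mice. It rose by 1.57 ± 0.31 (adjusted p = 0.00724) at 12 and by 1.98 ± 0.31 (adjusted p = 2.57e-05) at 24 against 3 months. With the GC offset the values were 1.30 ± 0.27 and 1.82 ± 0.27. The call at 12 months was lost without 3-month mouse 2 (1.51, adjusted p = 0.0529). Cd209b (SIGN-R1), a receptor of bacterial polysaccharides, had 0.703, 0.704 and 1.42 CPM at 3 months, 1.76, 1.26 and 0.584 CPM at 6 months, 3.11, 2.38 and 3.15 CPM at 12 months and 0.905, 1.16 and 4.33 CPM at 24 months. The 12-month mice were above all younger mice, and the 24-month mice split, with mouse 3 far above the others. Cd209b rose at 12 against 3 months by 1.62 ± 0.52 (adjusted p = 0.0472), and had 1.61 (adjusted p = 0.064) with the GC offset and 1.65 (adjusted p = 0.0681) with RLE scaling, and an adjusted p of 0.0506 with a filter at a mean CPM of 1. That call was lost in each of the 6 fits without 1 mouse. Their adjusted p was 0.113, 0.182 and 0.0787 without 3-month mouse 1, 2 or 3, and 0.104, 0.088 and 0.0787 without 12-month mouse 1, 2 or 3. At 24 against 3 months it had 1.12 ± 0.55 (adjusted p = 0.071), 2.10 ± 0.62 (adjusted p = 0.0102) with the GC offset, and 0.94 (adjusted p = 0.115) with the GC offset and without 24-month mouse 3.

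Cd209a, the mouse gene named for DC-SIGN, did not follow these neighbours. Cd209a had 5.42, 6.25 and 7.47 CPM at 3 months, 5.83, 6.20 and 6.20 CPM at 6 months, 7.79, 6.58 and 9.98 CPM at 12 months and 1.98, 2.98 and 0.820 CPM at 24 months. The 24-month mice were below all others. It fell by 1.67 ± 0.33 (adjusted p = 0.000227), and had -0.34 ± 0.27 (adjusted p = 0.296) with the GC offset. Cd302, an endocytic receptor of macrophages, had 35.4, 30.1 and 31.5 CPM at 3 months, 29.3, 28.9 and 33.3 CPM at 6 months, 30.2, 33.4 and 40.9 CPM at 12 months and 16.1, 14.1 and 12.999 CPM at 24 months. Levels were flat to 12 months and lower in all 24-month mice. Cd302 fell by 1.17 ± 0.19 (adjusted p = 2.86e-05), and had 0.04 ± 0.12 (adjusted p = 0.763) with the GC offset. Cd207 (Langerin) was highest at 12 months, with 1.43, 1.33 and 1.40 CPM against 0.703, 0.616 and 0.736 CPM at 3 months, and was not called (1.01 ± 0.47, adjusted p = 0.136). At 24 months it had 0.329, 0.436 and 0 CPM. Clec4g (LSECtin) had -0.10 ± 0.54 (adjusted p = 0.872) at 24 against 3 months. Of the 12 cDC2 markers, cells known to express several of these genes, 3 rose and 3 fell at 24 against 3 months (6 and 3 with the GC offset), and 1 rose and 1 fell at 12 against 3 months (0 and 2 with the GC offset). Their sums were 494 to 621 CPM at 24 months and 458 to 461 CPM at 3 months.

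Clec4f, the galactose receptor of liver Kupffer cells, missed the filter on reads, and its values are given because they differed between mice. It had 19, 354 and 0 reads in the 24-month mice (1.56, 25.7 and 0 CPM), 0 reads in all mice of 6 and 12 months and 3, 1 and 0 reads at 3 months. In 24-month mouse 2 it made up 3.62% of all member reads. A list of 7 Kupffer cell and liver sinusoid markers, chosen after these values were seen, summed to 59.3, 130 and 24.2 CPM in the 24-month mice, highest in mouse 2 as well, against 10.2 to 11.4 CPM at 3 months. Of the 7, 5 rose at 24 against 3 months with and without the GC offset, where 38.2% of all genes were higher (30.3% with the offset). As the list was chosen after these values were seen, that count is not a test. Cd5l had 40.0, 85.7 and 5.86 CPM at 24 months and 0.620 to 2.10 CPM at 3 months, and Vsig4 had 0.741, 5.74 and 0.117 CPM at 24 months. The 8 hepatocyte markers, chosen likewise, summed to 7.08, 2.40 and 1.17 CPM at 24 months and 2.37 to 3.27 CPM at 3 months. The sum in 24-month mouse 1, which had 19 Clec4f reads, was the highest of the 12 libraries. Alb, the defining hepatocyte gene, had 0 reads in 24-month mouse 2, and its values in the other mice are not given here. The source of the Clec4f reads was not tested.

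The Clec2 genes encode ligands of NK cell receptors of the Klrb1 group, and Cd69, next to them, marks activated lymphocytes and keeps them in the tissue by removing S1pr1. Clec2d had 184, 145 and 119 CPM at 3 months, 120.6, 106 and 119 CPM at 6 months, 136, 126 and 137 CPM at 12 months and 123, 102 and 45.4 CPM at 24 months. The 24-month range overlapped the 3-month one through mouse 1. Clec2d fell by 0.73 ± 0.28 (adjusted p = 0.0262), by 0.41 (adjusted p = 0.0466) without 24-month mouse 3, and had -0.76 (adjusted p = 0.0788) when only the ages compared were fitted and 0.34 ± 0.20 (adjusted p = 0.158) with the GC offset. Cd69 had 5.25, 5.32 and 3.73 CPM at 3 months, 5.67, 3.58 and 2.70 CPM at 6 months, 2.16, 2.43 and 7.53 CPM at 12 months and 0.741, 1.60 and 0 CPM at 24 months. All 24-month mice were below the others, and 12-month mouse 3 was the highest of all. Cd69 fell by 2.48 ± 0.64 (adjusted p = 0.00201), and had -0.71 ± 0.52 (adjusted p = 0.248) with the GC offset. Clec2i fell by 3.19 ± 0.48 (adjusted p = 1.49e-05), and had -0.90 ± 0.41 (adjusted p = 0.0747) with the GC offset. Both values rest on 6, 9 and 3 reads in the 24-month mice. Clec2i at 12 against 3 months had -1.09 ± 0.38 (adjusted p = 0.0632), with adjusted p = 0.0371 in a fit without the 24-month libraries.

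Of 15 tested ligands and partners of the members 5 rose and 8 fell at 24 against 3 months (4 and 5 with the GC offset), and none was called at 12 against 3 months. Klrb1b, an inhibitory NK receptor that binds Clec2d, fell by 1.95 ± 0.39 and had -0.06 (adjusted p = 0.886) with the GC offset. S1pr1 fell with and without the GC offset (-1.73 ± 0.20 and -1.06). Lgals9, which encodes a galectin that binds Clec7a in mice, rose (1.23 ± 0.18, and 0.76 with the GC offset). Of 16 NK and T cell markers 9 rose and 3 fell at 24 against 3 months (7 and 3 with the GC offset), with sums of 202 to 334 CPM at 24 months and 76.6 to 102 CPM at 3 months.

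The remaining members include genes of endothelium and secretion. Clec14a, an endothelial receptor of vessel growth that binds Mmrn2, had 305, 287 and 268 CPM at 3 months, 247, 205 and 233 CPM at 6 months, 271, 200.3 and 183 CPM at 12 months and 240.4, 225 and 123 CPM at 24 months. The 24-month mice were below those of 3 months, mouse 3 the lowest. It fell by 0.55 ± 0.25 (adjusted p = 0.0499). Leaving out 24-month mouse 3 gave -0.30 (adjusted p = 0.128), and the adjusted p was 0.081 with RLE scaling, 0.0509 with DESeq2, 0.0588 with no filter and 0.0933 with only the ages compared. It was higher with the GC offset (1.87 ± 0.18, adjusted p = 1.7e-06). Clec1a, a receptor of fungal melanin on endothelium, had 92.6, 114 and 114 CPM at 3 months, 89.5, 88.4 and 93.0 CPM at 6 months, 58.0, 48.7 and 117 CPM at 12 months and 18.6, 18.2 and 2.46 CPM at 24 months. All 24-month mice were far below the others, and 12-month mice 1 and 2 lay between. Clec1a fell by 3.00 ± 0.49 (adjusted p = 3.83e-05) and had -0.62 ± 0.31 (adjusted p = 0.1) with the GC offset. Of 12 blood endothelium markers 6 rose and 6 fell at 24 against 3 months (4 and 5 with the GC offset), with sums of 8081 to 17300 CPM at 24 months and 4035 to 4427 CPM at 3 months.

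Clec3b encodes tetranectin, a secreted protein that binds plasminogen, and has the highest GC content of the members, 60.2%. Clec3b had 130.9, 85.6 and 80.9 CPM at 3 months, 81.9, 90.9 and 79.7 CPM at 6 months, 122, 135 and 79.4 CPM at 12 months and 139, 131 and 158 CPM at 24 months. In CPM its 24-month mice were above those of 3 months, by little for 3-month mouse 1. In the deposited FPKM the mean was 117 ± 31.6 at 3 months and 100.3 ± 16.7 at 24 months, so the direction depended on the scaling. It rose by 0.53 ± 0.23 (adjusted p = 0.0476), and that call was lost without 3-month mouse 2 or 3 (0.21 and 0.17, adjusted p = 0.475 and 0.551) and without 24-month mouse 1, 2 or 3 (adjusted p = 0.0631, 0.056 and 0.0796). It was also lost with no filter, a filter at a mean CPM of 1 and only the ages compared (adjusted p = 0.0592, 0.0506 and 0.0935). Under the GC offset it fell by 1.24 ± 0.19 (adjusted p = 9.44e-05). Clec11a, a secreted growth factor of bone and blood cells, rose by 0.81 ± 0.22 (adjusted p = 0.00274), with 0.60 and 0.48 (adjusted p = 0.0507 and 0.096) without 3-month mouse 2 or 3 and 0.04 ± 0.17 (adjusted p = 0.865) with the GC offset. Clec16a, an intracellular regulator of mitophagy named for a lectin-like stretch, rose by 0.66 ± 0.27 (adjusted p = 0.0339). It was called in 1 of the 6 fits without 1 mouse, the one without 24-month mouse 3, and in the others the adjusted p was 0.337 (fold change 0.33), 0.135 and 0.174 without 3-month mouse 1, 2 or 3, and 0.0864 and 0.0875 without 24-month mouse 1 or 2. Its value with the GC offset was 0.09 ± 0.17 (adjusted p = 0.675). The mean deposited FPKM of Clec16a was 6.11 ± 1.04 at 3 months and 5.97 ± 2.27 at 24 months, with no rise on that scale.

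Read against GC content, the fold changes at 24 against 3 months followed the trend of all genes. Across the 28 members Pearson's r between GC content and fold change was 0.524 (Spearman's rho 0.578), and across 15949 tested genes it was 0.772 (0.805). These values were -0.114 (-0.057) and 0.058 (0.093) with the GC offset. For 12 against 3 months they were 0.241 (0.302) across the members and 0.378 (0.457) across all genes. These correlations are across genes of the same libraries, and genes are not independent replicates. Clec12b, with a GC content of 42.3%, had the lowest fold change of the members with and without the offset. The part of RNA quality or library preparation in the GC trend was not tested, and age and the state of the 24-month libraries cannot be told apart.

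**Figure D4:**
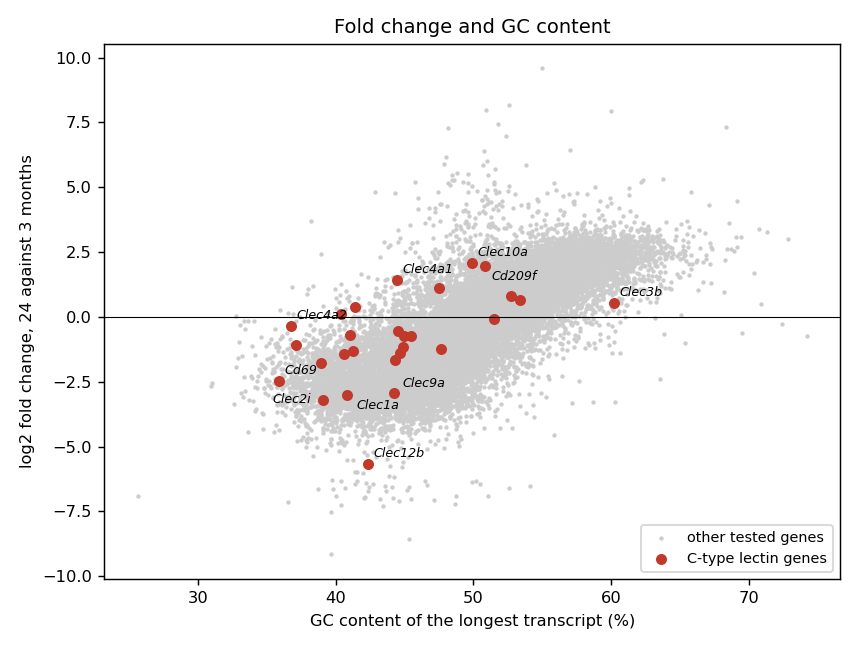
Log2 fold change at 24 against 3 months against the GC content of the longest transcript, with C-type lectin genes in red and other tested genes in grey. Genes of higher GC content have higher fold changes (r = 0.772), and most members lie on the GC-poor, lower left side.

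**Figure D5:**
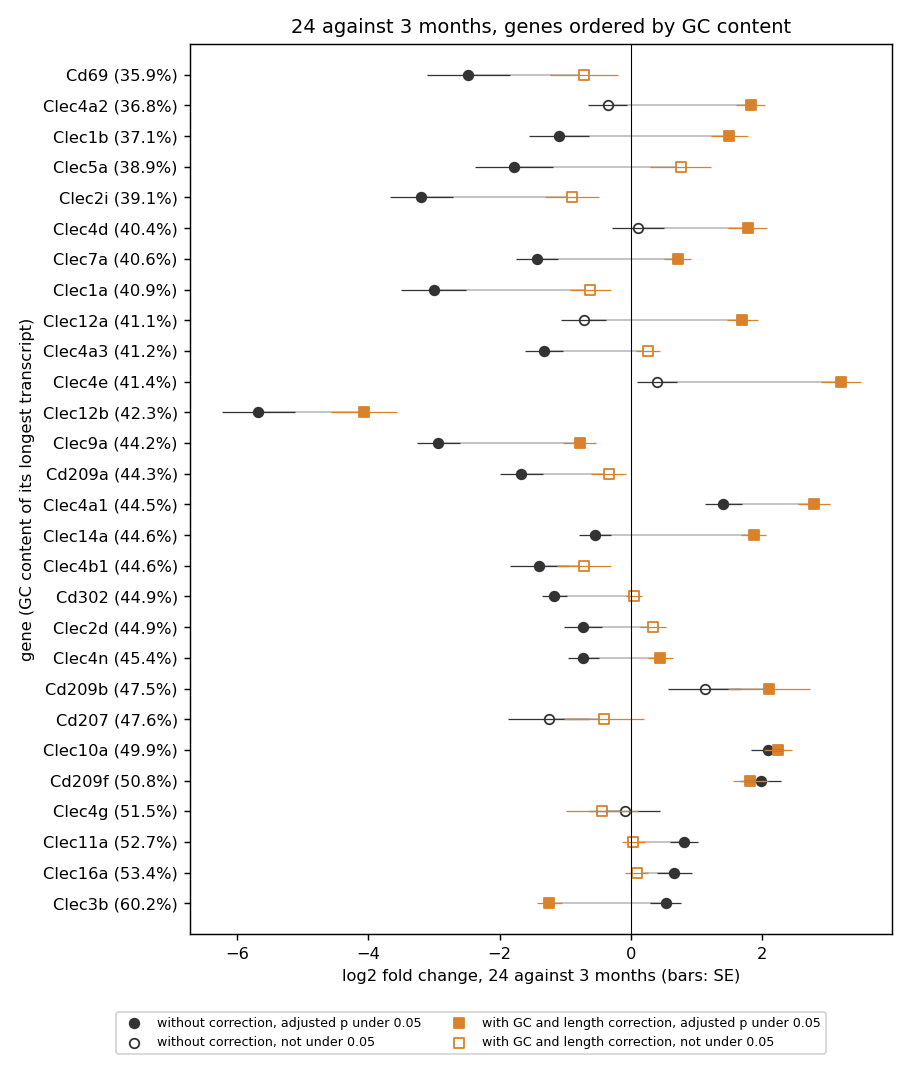
Log2 fold change of each tested member at 24 against 3 months without (dark circles) and with (orange squares) the GC offset, genes ordered by GC content from 35.9% at the top to 60.2% at the bottom, with SE bars and filled symbols for an adjusted p under 0.05. The GC-poor genes at the top shift to the right with the GC offset and Clec3b at the bottom shifts to the left. The offset also holds gene length, and genes of like GC content shifted unequally. Clec14a (44.56%, 4539 bp) went from -0.55 to 1.87, and Clec4b1 (44.65%, 748 bp) from -1.40 to -0.71. The parts of GC content and length in the shifts were not tested.

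By position, 27 of the 39 members lie in 3 clusters in mm10. The Clec4 cluster on chromosome 6 (chr6:122921848-123289870) holds 9 members, of which 7 were tested. Their median fold change was -0.35 at 24 against 3 months (1.78 with the GC offset) and 0.30 at 12 against 3 months. The second cluster of chromosome 6 (chr6:128652438-129472777) holds 14 members, from Clec2j to Clec7a, of which 9 were tested. Its medians were -2.48 (-0.62 with the GC offset) and -0.27, the lowest of the 3 clusters. The cluster of chromosome 8 (chr8:3707064-4105835) holds Clec4g, Cd209a, Cd209b and Cd209f, all tested, with medians of 0.51 (0.74) and 0.96. Neighbours within a cluster moved in opposite directions, as Clec4a1 and Clec4a3 or Cd209f and Cd209a did without the GC offset.

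The 11 members that were not tested had few reads. Clec2j and the second Clec7a ID had 0 reads in all 12 libraries, which allows up to 0.124 to 0.351 CPM per library (3 reads, counting error only). Clec18a, Clec2h, Clec3a, Clec4a4 and Clec4b2 had 7 reads or fewer in all, Clec2e 19 and Clec2g 24. Clec2l, a gene of the nervous system, had 4, 3 and 1 reads at 3 months, 5, 2 and 6 at 6 months, 3, 6 and 9 at 12 months and 9, 9 and 19 at 24 months. Of 38 tested genes with the same fold outside the members 5 rose and 25 fell at 24 against 3 months (2 and 13 with the GC offset), with a median of -1.80 (-0.39). Mrc1, the macrophage mannose receptor, fell (-3.56 ± 0.33, and -0.89 with the GC offset), as did Colec12, a scavenger receptor of endothelium (-3.89 ± 0.36, and -1.61), and at 12 against 3 months none of the 38 rose and 2 fell (1 and 1 with the GC offset).

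At 24 against 12 months, with mice already used above, 4 members rose and 16 fell, 71.4% in all, against 79.7% of all genes (37.3% higher and 42.5% lower). With the GC offset 9 rose and 2 fell, 39.3%, against 44.5% (22% higher and 22.5% lower). The median was -1.05 (0.39 with the GC offset), against -0.20 (-0.01) over all genes. Clec10a and Clec4a1 were higher and Clec12b lower both with and without the GC offset, and Clec11a was higher as well (1.15 ± 0.22, and 0.55 with the GC offset). At 12 against 6 months no member was called, against 2.03% of all genes (0.48% higher and 1.55% lower), with 6 members and 3851 genes at an unadjusted p under 0.05. With the GC offset Clec4d (1.07 ± 0.27, adjusted p = 0.0347) and Clec4e (1.00 ± 0.25, adjusted p = 0.0366) were higher, 7.14%, against 5.54% of all genes (2.87% higher and 2.68% lower).

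The other fits are given with the same shares of all genes. Without the 24-month libraries 5 members rose and 3 fell at 12 against 3 months, 28.6%, against 35.8% of all genes (18.8% higher and 17% lower), with Clec12b, Clec9a and Clec2i as the 3 that fell. At 12 against 6 months that fit called 3 higher and 1 lower, 14.3%, against 19.7% of all genes (10.7% and 9.06%). With the GC offset as well, 7 rose and 3 fell at 12 against 3 months, 35.7%, against 29.4% of all genes (17.3% and 12.1%), and 6 rose and 1 fell at 12 against 6 months, 25% (21.4% and 3.57%), against 15.3% (9.09% and 6.21%). DESeq2 called 7 members higher and 14 lower at 24 against 3 months, 75%, against 83.5% of all genes (40.3% and 43.3%), and 5 higher and 1 lower at 12 against 3 months, 21.4% (17.9% and 3.57%), against 21.8% (9.87% and 11.9%). For 24 against 12 months it called 4 higher and 16 lower, 71.4%, against 81.2% (39.4% and 41.8%), and at 12 against 6 months 1 member, Clec4d, higher (1.12, adjusted p = 0.0477), 3.57%, against 9.85% (4.09% and 5.76%), while its 6 genes at 6 against 3 months are 0.0374%. The authors' deposited table had 7 members higher and 13 lower at 24 against 3 months, 5 higher and 3 lower at 12 against 3 months, and none at 6 against 3 months, at their adjusted p under 0.05. In these comparisons 31, 29 and 28 members had an adjusted p there. The 7 higher include Clec2l, which was not tested here. The share of all genes called in that table was not computed, so these counts cannot be set against it.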

How the data were processed

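RNA-seq of lung was read from the deposited table of 12 libraries, 3 mice at each of 4 ages. Counts of reads per gene were deposited by the authors for each library, and these were tested. FPKM were deposited by the authors and are printed only as levels per length. The signal, log2 fold changes and p-values of their own comparisons were also deposited by the authors. Only counts of members and the call of Clec2l are quoted from these. The submitters' processing notes name TopHat, STAR 2.5, HTSeq 0.6.1 and mm10 without roles. The strand setting and the handling of overlapping genes and paralogs were not given in the sources used here.

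Genes were filtered with filterByExpr, scaled by TMM and tested with edgeR 4.0.16 (limma 3.58.1, R 4.3.3), using glmQLFit with robust dispersions on all 12 libraries, with Benjamini-Hochberg adjustment over 16042 genes and a threshold of 0.05. The GC offset fits a smooth of log2 CPM (prior count 2) on GC content and gene length in each library (mgcv 1.9.3) and enters it into the test, over 15949 genes with a GC content from GENCODE M21. Alternatives were RLE size factors, DESeq2 1.42.0, no filter on reads, a filter at a mean CPM of 1, only the ages compared, no 24-month libraries, mouse number as a block, and leaving out each mouse. The scripts were tested on simulated data. The 18 same-number pairs of mice had a median residual r of -0.05, 4 over 0.1, so mouse number was not treated as a pairing.

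Members and lists were chosen with earlier results of these data known. All 12 values are given for members called at 6 or 12 against 3 or at 12 against 6 months, for those called in the same direction at 24 against 3 months with and without the GC offset, and for 13 members named in advance, with some values of the other members. Of other genes, the 4 with the smallest p at 24 against 3 months in each list and a mean CPM of at least 1 could be named, with Syk, Card9, Fcer1g, Tyrobp and Pdpn. Malt1, Il1b, Cblb, Xcr1, Klrb1b, Cd5l, Vsig4 and Alb, the values of Clec4f and Clec2l and the liver lists were added after their values were seen.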

Additional observations from a re-analysis of the deposited data

How the results depend on the processing

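The GC offset changed the direction of 11 of the 28 members at 24 against 3 months. The log2 fold changes with it were 0.045 for Cd302, 1.693 for Clec12a, 1.866 for Clec14a, 1.497 for Clec1b, 0.337 for Clec2d, -1.242 for Clec3b, 1.822 for Clec4a2, 0.264 for Clec4a3, 0.449 for Clec4n, 0.757 for Clec5a and 0.713 for Clec7a. The fits without 1 mouse, taken without and with the offset, ran from -1.426 to 0.122 for Cd302, -1.219 to 1.856 for Clec12a, -0.808 to 1.945 for Clec14a, -1.861 to 1.728 for Clec1b, -1.085 to 0.575 for Clec2d, -1.404 to 0.583 for Clec3b, -0.653 to 1.943 for Clec4a2, -1.57 to 0.409 for Clec4a3, -1.092 to 0.644 for Clec4n, -3.29 to 1.155 for Clec5a, -1.701 to 0.877 for Clec7a, -0.107 to 0.874 for Clec11a and -0.076 to 0.807 for Clec16a. At 24 against 12 months the offset gave 0.486 for Clec4d and 1.262 for Clec4e, and the fits without 1 mouse ran from -1.653 to 0.726 for Clec4d, -1.303 to 1.442 for Clec4e and -2.408 to 0.136 for Clec9a. In each of these 16 ranges the values of the other sign came with the offset. The cause was not tested.

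At 24 against 3 months the offset gave 12 members higher and 3 lower, and without 1 mouse the counts were 3 to 5 higher and 13 to 17 lower, or 10 to 12 and 2 to 4 with the offset. At 24 against 12 months it gave 9 and 2, and without 1 mouse 3 to 4 and 11 to 18, or 7 to 9 and 2 to 3 with the offset. At 12 against 3 months the count without 1 mouse was 0 to 3 higher and 0 to 3 lower, or 3 to 5 and 1 to 2 with the offset. No filter on reads gave 3 lower there, only the 2 ages compared gave 2, and leaving out the 24-month libraries gave 3 without and 3 with the offset. At 12 against 6 months 1 member was higher with DESeq2, 3 higher and 1 lower without the 24-month libraries, 2 higher with the offset and 6 higher and 1 lower with both, and without 1 mouse 0 higher and 0 to 1 lower, or 0 to 1 and 0 with the offset. No fit called a member at 6 against 3 months. Shares of all genes were not computed for the fits without 1 mouse, with no filter, with only the ages compared or with a block. Those counts of members therefore cannot be set against all genes. The size factors of DESeq2 moved the median over all genes at 24 against 3 months to -0.16, against -0.29 with TMM.

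Mouse number as a replicate block gave 3 members higher at 12 against 3 months, with an adjusted p of 0.0586 for Clec4d and 0.057 for Cd209b, which had been called. With the offset the block gave 11 higher and 3 lower at 24 against 3 months and 9 higher and 2 lower at 24 against 12 months. Clec4n then had an adjusted p of 0.0684 at 24 against 3 months. The log2 fold changes with offset and block were 0.046 for Cd302, 1.642 for Clec12a, 1.871 for Clec14a, 1.458 for Clec1b, 0.31 for Clec2d, -1.26 for Clec3b, 1.809 for Clec4a2, 0.258 for Clec4a3, 0.438 for Clec4n, 0.761 for Clec5a and 0.706 for Clec7a at 24 against 3 months, and 0.482 for Clec4d and 1.267 for Clec4e at 24 against 12 months. Of 12 libraries 2 correlated best with a library of their own number, which gives no sign of pairing. It is a check on the data and not on the design.

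At 24 months Clec12b, Cd207, Cd209b, Clec2i, Clec4b1, Clec4g, Clec5a and Cd69 had few reads. With 3 mice an age, small differences of these genes were not detectable at this depth. Age and the state of the 24-month libraries cannot be told apart.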
